A study of Mus musculus with 24 samples.

Results

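The effect of cabozantinib (cabo) was measured in mouse prostate tumors growing in bone, by comparing 3 tumors of mice given cabo with 3 tumors of mice given its vehicle, polyvinylpyrrolidone (PVP), all harvested on day 14. These 6 of the 24 samples of the series were chosen by their labels for vector, treatment and day. All 6 hosts were male C57/BL6 mice of 8 to 10 weeks, all had TC2Ras-Luc cells injected into each tibia, and all had a control vector delivered by ultrasound to the tibialis anterior, the muscle that lies along that bone. The labels call this vector empty, and the study describes its control vector as one that carries only the reporter Lucia. It is called the empty vector here. TC2Ras-Luc carries activated H-Ras, an added mouse androgen receptor and a luciferase reporter. It is a mouse line of prostate adenocarcinoma that goes back to TRAMP-C2, so all tumors have 1 line of origin. Cabo or PVP was given once a day by oral gavage for the 2 weeks after implantation. The control tumors came from mice 3, 5 and 7 and the cabo tumors from mice 21, 25 and 27, so every tumor had its own mouse, and the p-values below measure the spread between mice.

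Cabo blocks several receptor tyrosine kinases, among them the receptors of vascular endothelial growth factor (VEGFR-1, 2 and 3, encoded by Flt1, Kdr and Flt4), MET, KIT, RET, AXL and the Angiopoietin receptor TIE2. In a growing vessel, VEGF acting on VEGFR-2 selects tip cells that lead the sprout, tip cells display the Notch ligand DLL4 that keeps their neighbors from becoming tips, and VEGFR-3 drives the lymphatic endothelium as well as some sprouting blood vessels. In bone, tumor cells also meet osteoclasts, which resorb bone, osteoblasts, which form it, blood-forming marrow, and the muscle and tendon that surround the bone.

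The gene counts of a tumor summed to between 69257214 and 75305934, and 22680 to 23645 genes had at least 1 count. Levels are given as CPM, the usual scaling of counts to library size, here with the effective library sizes of edgeR. Across the 18627 genes with enough counts to be tested, Pearson's r of log2 CPM was at least 0.968 between tumors of a group, and reached 0.971 between control mouse 5 and cabo mouse 21, above the lowest value within a group. The Hras gene, which the line carries in activated form, had 23.1, 19.2 and 19.9 CPM in the control and 17.8, 18.7 and 22.1 CPM in the cabo tumors, and the groups overlapped. Krt5, a keratin of basal prostate epithelium, had 0 counts in all 6 tumors. The same was true of Bglap, Bglap2, Mepe and Sost, which mark mature osteoblasts and osteocytes. Ibsp, a bone matrix gene, had 0, 0 and 4 counts in the control and 32, 4 and 8 in the cabo tumors, too few to be tested. Skeletal muscle RNA moved with the treatment, with all 23 tested muscle genes higher with cabo at a summed level of 149 to 344 CPM in the control and 1635 to 2454 CPM in the cabo tumors, and it accompanies every result below.

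With cabo, 223 genes were higher (1.20% of those tested) and 129 lower (0.693%) in edgeR's quasi-likelihood test with an adjusted p under 0.05, and these are the genes called below. By the limits that the study's design text gives for differentially expressed genes (DEGs), a log2 fold change of 1.5 or more in either direction with an unadjusted p under 0.05, 323 genes were upregulated (1.73%) and 220 downregulated (1.18%). The study's methods instead name a fold change of 1.5, not on the log2 scale, which gave 853 and 595 genes. All 3 cabo tumors lay above all 3 control tumors for 2538 genes (13.6%) and below them for 2511 (13.5%). Among the called genes the median log2 fold change was 2.13 for those higher and -1.75 for those lower, against -0.01 for all genes tested. Leaving out 1 tumor moved these counts. Without cabo mouse 21, 25 or 27, the genes called higher numbered 49, 39 and 39, and those called lower 44, 53 and 41. Leaving out control mouse 7 gave 63 higher and 63 lower, leaving out control mouse 3 gave 200 higher and 138 lower, and leaving out control mouse 5 gave 419 higher and 169 lower.

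The lists of genes used here hold 587 genes in 36 groups, of which 533 were tested, 25 called higher and 41 called lower. Genes of the vessels, T cells and lymphatics made up most of the called members that were lower, and genes of skeletal muscle and tendon most of those that were higher. In the plot of every list gene, each called gene stands out by color and the black bar gives the median of its list.

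**Figure D1:**
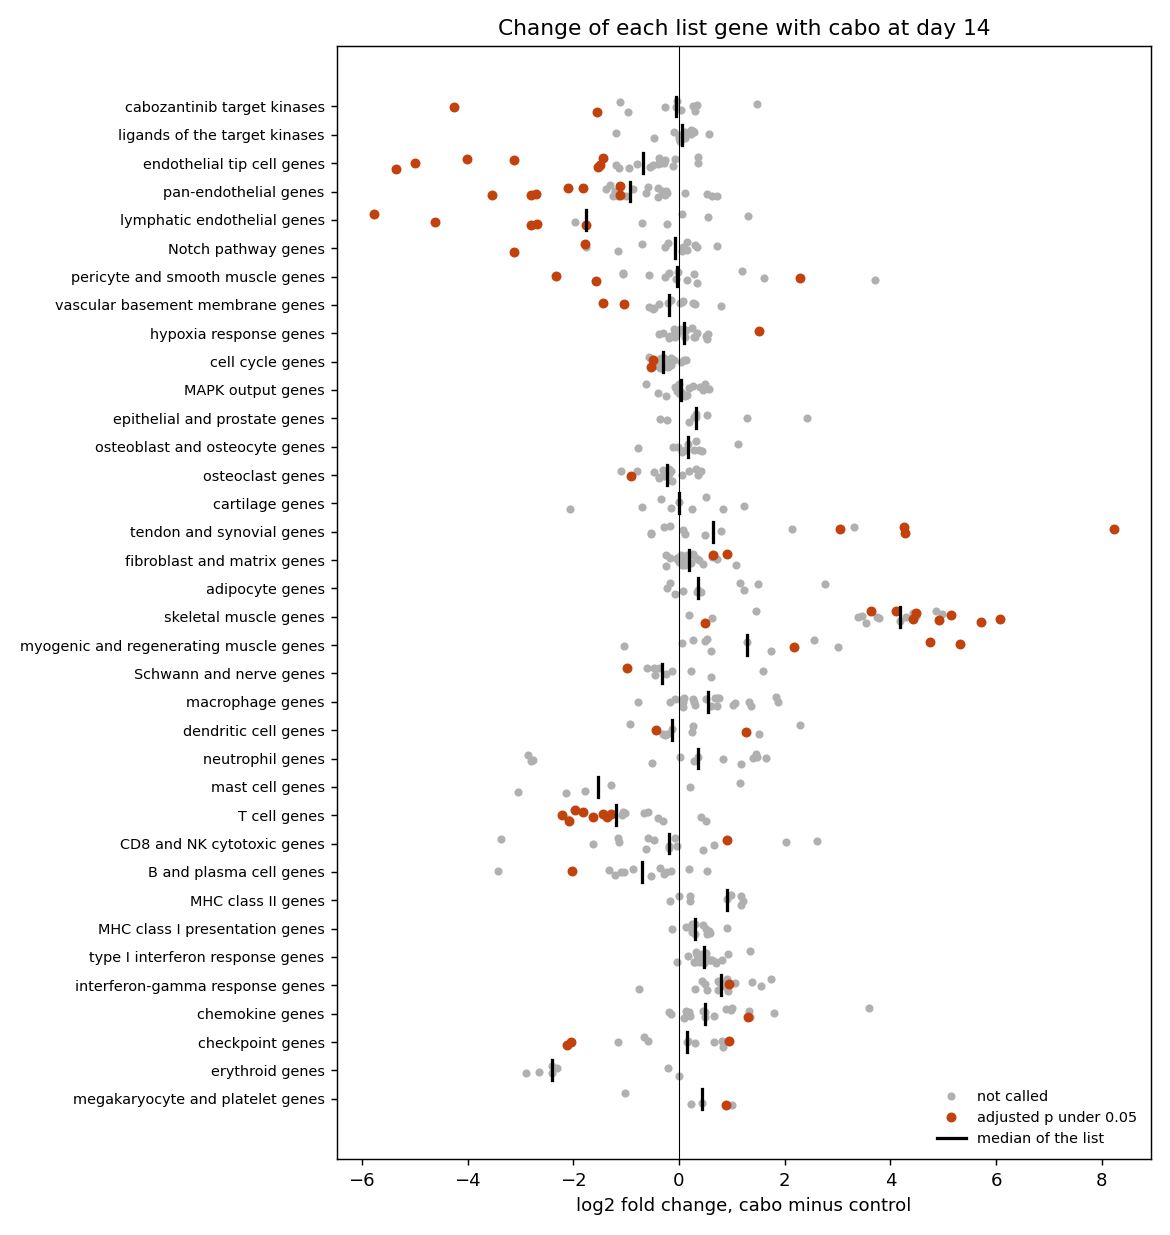
Log2 fold change (cabo minus control, x axis) of every tested gene in 36 lists (rows). Each dot is a gene, colored dots passed edgeR's test with an adjusted p under 0.05, and black bars are list medians. Skeletal muscle has the highest median (4.19) and erythroid genes the lowest (-2.40, or -1.32 without control mouse 7), and the called genes of the endothelial and T cell lists all lie left of 0.

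Of the 12 tested genes for kinases that cabo blocks, 2 were called lower and none higher, and both encode VEGF receptors. Flt4 had 17.4, 26.9 and 15.99 CPM in the control tumors and 0.806, 0.919 and 1.42 CPM in the cabo tumors. The lowest control tumor was thus more than 10 CPM above the highest cabo tumor (log2 fold change -4.26, standard error (SE) 0.30, edgeR adjusted p = 0.00257). Kdr, the main receptor for VEGF-A, had 30.5, 32.1 and 17.7 CPM against 6.32, 9.96 and 11.01 CPM, so the groups did not overlap here either (log2 fold change -1.56, SE 0.28, edgeR adjusted p = 0.0401). In bulk tissue, fewer cells of a type and less RNA per cell cannot be told apart, here and below.

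Flt1 and Kit were not called, although their groups did not overlap. Flt1, which encodes VEGFR-1, had 38.5, 63.3 and 70.0 CPM in the control and 25.5, 22.4 and 31.3 CPM in the cabo tumors (log2 fold change -1.12, SE 0.23, edgeR adjusted p = 0.0572). Kit had 6.10, 10.8 and 9.80 CPM against 4.29, 5.31 and 4.06 CPM (log2 fold change -0.96, SE 0.24, edgeR adjusted p = 0.094). Tek, which encodes TIE2 and is also an endothelial gene, had 5.07, 5.85 and 3.01 CPM in the control and 3.92, 4.85 and 4.604 CPM in the cabo tumors. The cabo values of Tek lay within the range of the control values (log2 fold change -0.06, SE 0.26, edgeR adjusted p = 0.928).

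The kinases that carcinoma cells can carry gave no called change. Axl had 667, 584 and 558 CPM against 588, 599 and 569 CPM, and Met had 94.8, 60.2 and 62.2 CPM against 86.9, 82.3 and 97.0 CPM. The log2 fold changes were -0.04 (SE 0.10) for Axl and 0.29 (SE 0.18) for Met. Mertk and Tyro3, the other members of the AXL family, had log2 fold changes of 0.26 (SE 0.12) and 0.03 (SE 0.12). Ret, which is scarce here, had 0.522, 0.394 and 0.636 CPM against 0.777, 1.03 and 2.499 CPM, a log2 fold change of 1.47 (SE 0.49, edgeR adjusted p = 0.174). For Flt3, a receptor of dendritic cell precursors, the log2 fold change was -0.26 (SE 0.32), and for Ntrk2, a neurotrophin receptor, 0.33 (SE 0.23). Ros1 had 2 counts in 1 control tumor and none elsewhere.

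Over the 12 kinase genes the median log2 fold change was -0.05, close to that of all genes, and it ran from -0.20 without control mouse 7 to 0.04 without control mouse 3. Among the 15 tested genes for ligands of these kinases none was called. Vegfa, whose protein binds VEGFR-1 and VEGFR-2, had 72.6, 260 and 241 CPM in the control tumors and 212, 162 and 210 CPM in the cabo tumors. Control mouse 3 was the lowest and the other control tumors the highest of the 6 (log2 fold change 0.03, SE 0.41). Pgf, which encodes placental growth factor, showed the same low value in mouse 3, with 4.01 CPM against 15.2 to 34.0 CPM in the other 5 tumors. The lymphatic growth factors Vegfc and Vegfd had log2 fold changes of -0.10 (SE 0.14) and 0.28 (SE 0.19). Hgf and Gas6, which bind MET and the AXL family, had log2 fold changes of 0.01 (SE 0.18) and 0.12 (SE 0.26). Angpt2, a TIE2 ligand that sprouting endothelium itself makes, was the 1 ligand whose groups did not overlap downward, with 14.2, 22.3 and 30.4 CPM against 9.24, 9.44 and 10.6 CPM (log2 fold change -1.19, SE 0.25, edgeR adjusted p = 0.065). The remaining ligand genes, Angpt1, Kitl, Flt3l, Pros1, Gdnf, Artn, Bdnf and Vegfb, had log2 fold changes between -0.48 (Kitl) and 0.57 (Angpt1), with edgeR adjusted p-values from 0.449 to 0.994.

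The genes that mark endothelial tip cells were among those with the smallest p. Of 22 tested, 7 were called lower and none higher, 12 had no overlap downward, and the median log2 fold change was -0.67. Dll4 had the smallest p of all 18627 genes. It had 12.1, 12.3 and 13.5 CPM in the control tumors and 1.27, 1.25 and 1.81 CPM in the cabo tumors (log2 fold change -3.13, SE 0.20, edgeR adjusted p = 0.00245). All control tumors lay above 12 CPM and all cabo tumors below 2 CPM.

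Esm1, which encodes endocan, a secreted product of tip cells, had 8.63, 9.18 and 9.60 CPM in the control and 0.173, 0.0836 and 0.409 CPM in the cabo tumors. This is a log2 fold change of -5.36 (SE 0.48, edgeR adjusted p = 0.00314), the largest fall of the list. Kcne3, a subunit of a potassium channel, had 8.28, 4.40 and 3.04 CPM against 0.158, 0.195 and 0.132 CPM (log2 fold change -5.00, SE 0.46, edgeR adjusted p = 0.00331). Pcdh12, an adhesion molecule of endothelial junctions, fell from 8.76, 9.73 and 4.70 CPM to 0.360, 0.487 and 0.585 CPM (log2 fold change -4.01, SE 0.35, edgeR adjusted p = 0.00314). No tumor of one group reached the range of the other for these 3 genes. The other called members were Plvap, Igfbp3 and Nid2. Apln, which encodes the peptide apelin and was picked after its values were seen, was not called, with 70.8, 86.1 and 96.2 CPM against 86.9, 65.7 and 86.9 CPM (log2 fold change -0.08, SE 0.15).

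Dll4 and Hey1 were the called members of the 14 Notch pathway genes, both lower. Hey1, a target gene of Notch in endothelium, had 2.87, 3.63 and 2.89 CPM in the control and 0.792, 1.25 and 0.672 CPM in the cabo tumors, without overlap (log2 fold change -1.79, SE 0.30, edgeR adjusted p = 0.0333). The median of the list was -0.07, and 7 of the 14 genes had a positive and 7 a negative log2 fold change. It ran from -0.20 without control mouse 7 to 0.01 without control mouse 5.

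Shown next are the promoters of the 4 vessel genes called lower with the smallest p among those in the RefSeq table. That of Myh4, a muscle gene taken up further on, is shown as well. These windows are the 250 bases before and 50 after the start of the gene in RefSeq, on GRCm38.p6 and read along the gene's strand. Capitals mark matches, on either strand, to CAGGAA for ETS factors, which act in all endothelium, TGGGAA for the Notch factor RBPJ, and CAGCTG for an E-box of the muscle factors. Of the called genes, 161 of the 223 higher and 90 of the 129 lower had a promoter in the table. Dll4 lies at chr2:119325534-119325833 (+), Flt4 at chr11:49609429-49609728 (+), Mmrn1 at chr6:60944067-60944366 (+), Emcn at chr3:137340828-137341127 (+) and Myh4 at chr11:67237562-67237861 (+).
Dll4: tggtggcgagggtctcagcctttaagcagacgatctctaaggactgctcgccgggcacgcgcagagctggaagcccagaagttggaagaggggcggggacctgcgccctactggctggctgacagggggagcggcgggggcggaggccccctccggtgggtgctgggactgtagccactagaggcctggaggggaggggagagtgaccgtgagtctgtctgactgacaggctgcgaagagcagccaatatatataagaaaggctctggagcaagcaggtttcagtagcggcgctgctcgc
Flt4: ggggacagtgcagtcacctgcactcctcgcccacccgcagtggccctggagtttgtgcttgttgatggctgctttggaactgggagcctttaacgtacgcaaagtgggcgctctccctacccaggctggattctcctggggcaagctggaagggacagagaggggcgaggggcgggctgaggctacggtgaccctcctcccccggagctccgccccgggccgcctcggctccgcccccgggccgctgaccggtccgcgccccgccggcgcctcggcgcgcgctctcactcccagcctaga
Mmrn1: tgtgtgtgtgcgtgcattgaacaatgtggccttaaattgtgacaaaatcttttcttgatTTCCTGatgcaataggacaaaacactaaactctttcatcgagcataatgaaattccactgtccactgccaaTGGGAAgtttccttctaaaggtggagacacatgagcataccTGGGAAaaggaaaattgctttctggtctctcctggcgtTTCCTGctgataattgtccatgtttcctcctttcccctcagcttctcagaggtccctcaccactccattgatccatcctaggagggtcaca
Emcn: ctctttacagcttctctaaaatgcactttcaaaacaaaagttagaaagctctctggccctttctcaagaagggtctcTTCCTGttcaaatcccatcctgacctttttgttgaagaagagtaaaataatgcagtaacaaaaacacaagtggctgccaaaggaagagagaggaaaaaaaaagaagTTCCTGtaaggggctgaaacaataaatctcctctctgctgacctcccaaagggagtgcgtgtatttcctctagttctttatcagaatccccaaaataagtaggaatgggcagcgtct
Myh4: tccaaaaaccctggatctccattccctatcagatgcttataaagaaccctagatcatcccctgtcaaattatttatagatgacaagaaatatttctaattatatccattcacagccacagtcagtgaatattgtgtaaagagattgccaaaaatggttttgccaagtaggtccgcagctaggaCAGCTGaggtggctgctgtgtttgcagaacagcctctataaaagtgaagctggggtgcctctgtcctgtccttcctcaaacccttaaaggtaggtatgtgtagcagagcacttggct

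Neither the Dll4 nor the Flt4 window held a match to any of these motifs. Mmrn1 had 2 matches to the ETS and 2 to the RBPJ letters, Emcn 2 to the ETS letters and Myh4 1 to the E-box. The window of Ttn, another muscle gene and not printed, had none to the E-box and 1 to the RBPJ letters. The ETS letters stood in 41.1% of the promoters of genes called lower, in 30.4% of those called higher, in 30.4% of all 27025 promoters and in 27.3% of the 12395 of genes tested. For the called vessel genes it was 8 of 15 promoters (53.3%). The RBPJ letters stood in 25.6% of the promoters of genes called lower, in 25.5% of all, in 23.5% of genes tested and in 6 of the 15 of the called vessel genes (40.0%). The E-box stood in 24.2% of the promoters of genes called higher, in 15.6% of those called lower, in 16.1% of all and in 15.7% of genes tested, and in 5 of the 8 promoters of the called muscle genes. These are matches of letters, with no test.

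Of 26 pan-endothelial genes, 7 were called lower, none was called higher, 15 had no overlap downward and 4 had a positive log2 fold change, with a median log2 fold change of -0.93. Gpihbp1, which carries lipoprotein lipase to the lumen of capillaries, had 11.2, 15.0 and 9.92 CPM in the control and 1.22, 1.24 and 0.643 CPM in the cabo tumors (log2 fold change -3.54, SE 0.30, edgeR adjusted p = 0.00314). Emcn, a mucin of veins and capillaries that also marks the vessels coupled to bone growth, had 20.7, 19.5 and 14.2 CPM against 2.00, 3.11 and 3.24 CPM (log2 fold change -2.70, SE 0.24, edgeR adjusted p = 0.00314). Both genes were lower in every cabo tumor by a wide margin.

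Cldn5, the tight junction gene of endothelium, fell from 6.34, 9.94 and 9.59 CPM to 1.55, 1.13 and 1.04 CPM, and Tie1, a receptor related to TIE2, from 26.5, 27.3 and 18.4 CPM to 4.97, 9.37 and 6.20 CPM. Their log2 fold changes were -2.80 (SE 0.26, edgeR adjusted p = 0.00331) and -1.81 (SE 0.26, edgeR adjusted p = 0.0207). Pecam1, Cdh5 and Vwf, general endothelial genes picked after their values were seen, were not called. Pecam1 had 64.3, 63.3 and 48.5 CPM against 32.6, 48.5 and 33.3 CPM, with cabo mouse 25 level with control mouse 7 (log2 fold change -0.62, SE 0.18, edgeR adjusted p = 0.137). Cdh5, which encodes VE-cadherin, had 75.5, 127 and 69.1 CPM against 72.9, 54.5 and 79.9 CPM (log2 fold change -0.39, SE 0.24), and the groups overlapped. Vwf, a gene of large vessels, had 2.12, 18.6 and 10.2 CPM against 14.5, 19.2 and 14.0 CPM (log2 fold change 0.63, SE 0.61).

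Set against the mean log2 CPM of the pan-endothelial list in the same tumor, Dll4 and Esm1 of the tip cell list and Flt4 were lower with cabo. Relative to that mean, Dll4 had log2 values of 0.54 ± 0.36 (SD, n = 3) in the control and -1.67 ± 0.46 (SD, n = 3) in the cabo tumors. Esm1 had 0.08 ± 0.33 (SD, n = 3) and -4.43 ± 1.19 (SD, n = 3), and Flt4 had 1.17 ± 0.14 (SD, n = 3) and -2.14 ± 0.53 (SD, n = 3). For Kdr the difference of these relative values was -0.64 and for Flt1 -0.17, whereas for Tek it was 0.90 and for Apln 0.83. The tip cell list as a whole had a median log2 fold change of -0.67, against -0.93 for the pan-endothelial list. As mean log2 CPM, the same lists differed between the groups by -1.24 and -0.91. Gpihbp1 of the pan-endothelial list had a log2 fold change of -3.54. The relative values are descriptions and were not tested.

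**Figure D2:**
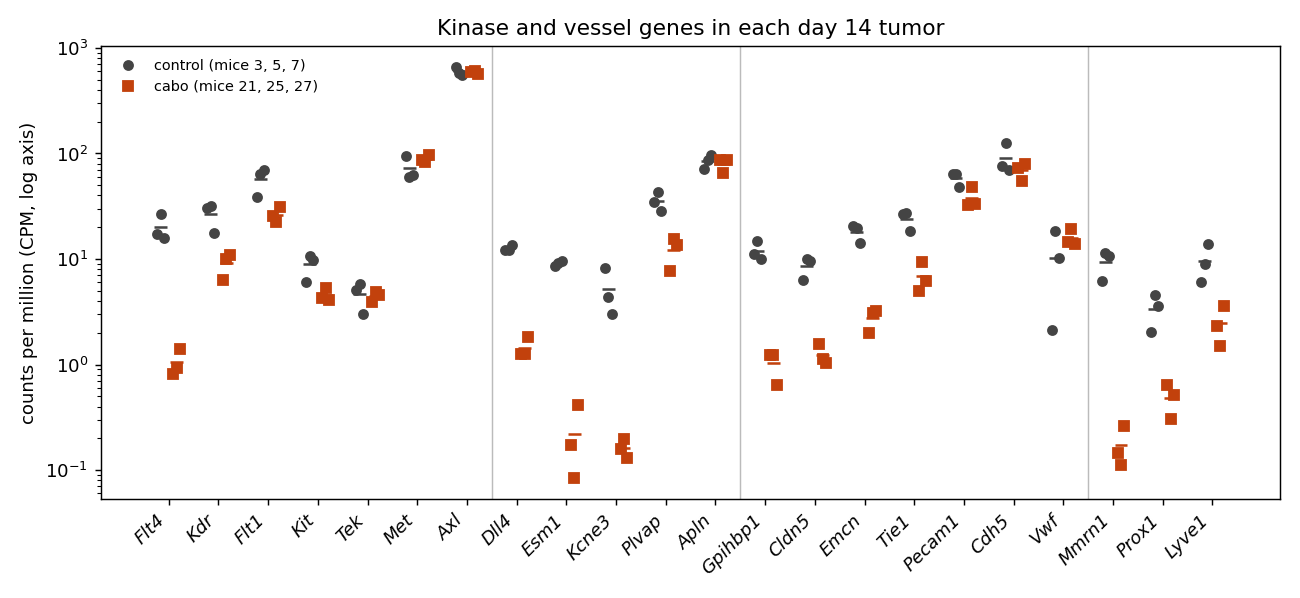
Levels (CPM, log axis) of 22 kinase and vessel genes in each tumor, circles for the 3 control and squares for the 3 cabo tumors, with a short line at each group mean. Vertical lines separate kinases, tip cell genes, pan-endothelial genes and lymphatic genes, and the groups lie apart for Flt4, Dll4, Esm1, Kcne3 and Mmrn1 while Axl, Apln and Cdh5 overlap.

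Of 11 lymphatic endothelial genes, 5 were called lower and none higher, 8 had a negative and 3 a positive log2 fold change, and the median was -1.75. Their summed level, 150 to 237 CPM in the control and 202 to 246 CPM in the cabo tumors, was mostly that of Stab1, a scavenger receptor also found in macrophages, which was picked after its values were seen and was not called (log2 fold change 0.55, SE 0.26). Mmrn1, which encodes multimerin of lymphatic vessels and platelets, had 6.24, 11.4 and 10.7 CPM in the control and 0.144, 0.111 and 0.263 CPM in the cabo tumors (log2 fold change -5.76, SE 0.40, edgeR adjusted p = 0.00257). Prox1, the transcription factor that sets lymphatic identity, had 2.04, 4.52 and 3.58 CPM against 0.633, 0.306 and 0.511 CPM (log2 fold change -2.80, SE 0.41, edgeR adjusted p = 0.021). Control and cabo tumors did not overlap for either gene.

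Ccl21a encodes a chemokine that lymphatic vessels use to draw in dendritic cells and T cells. It had 14.7, 19.5 and 17.8 CPM in the control and 0.950, 0.111 and 1.07 CPM in the cabo tumors (log2 fold change -4.61, SE 0.62, edgeR adjusted p = 0.0157). Ccl21b, with 1.403, 2.63 and 2.21 CPM against 0.0432, 0 and 0 CPM, is a near-identical copy on the same chromosome, so the split of reads between the copies is uncertain. Klhl4, with 3.40, 2.97 and 1.96 CPM against 0.230, 0.446 and 0.614 CPM, was called as well (log2 fold change -2.69, SE 0.41, edgeR adjusted p = 0.0239), and Reln was the fifth. Lyve1, named after its values were seen, had 6.09, 8.95 and 13.9 CPM against 2.30, 1.49 and 3.61 CPM without being called (log2 fold change -1.97, SE 0.40, edgeR adjusted p = 0.056).

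Mural cells, the pericytes and smooth muscle cells that wrap vessels, gave a mixed picture, with 1 of 16 genes called higher and 2 lower and a median log2 fold change of -0.04. Kcnj8, a pericyte potassium channel, had 4.15, 8.02 and 5.43 CPM in the control and 1.15, 1.36 and 0.994 CPM in the cabo tumors (log2 fold change -2.32, SE 0.29, edgeR adjusted p = 0.0125). Mcam, which both endothelium and pericytes carry, had 56.1, 54.3 and 32.5 CPM against 12.8, 14.0 and 21.3 CPM (log2 fold change -1.57, SE 0.26, edgeR adjusted p = 0.0319). Synpo2, which encodes an actin-binding protein of smooth, cardiac and skeletal muscle, rose from 3.31, 4.25 and 4.28 CPM to 20.04, 20.6 and 17.2 CPM (log2 fold change 2.29, SE 0.16, edgeR adjusted p = 0.00257). The median of this list ran from -0.27 without cabo mouse 27 to 0.36 without control mouse 5. In the vascular basement membrane, 2 of 14 genes were called lower. Nid2 had 35.4, 45.3 and 33.7 CPM against 14.1, 14.1 and 13.9 CPM (log2 fold change -1.44, SE 0.14, edgeR adjusted p = 0.00331), and Sparcl1 had 68.6, 71.4 and 57.6 CPM against 25.2, 43.0 and 28.4 CPM (log2 fold change -1.03, SE 0.20, edgeR adjusted p = 0.0493).

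Of 18 T cell genes, 8 were called lower, none was called higher, 14 had no overlap downward and 2 had a positive log2 fold change, with a median log2 fold change of -1.18. Trac, the constant segment of the T cell receptor alpha chain, had 12.3, 11.9 and 13.5 CPM in the control and 4.39, 4.14 and 3.62 CPM in the cabo tumors (log2 fold change -1.63, SE 0.15, edgeR adjusted p = 0.00314). Cd3e, a signaling chain of that receptor, had 10.8, 11.002 and 10.1 CPM against 2.07, 2.88 and 3.16 CPM (log2 fold change -1.97, SE 0.19, edgeR adjusted p = 0.0040). In both genes the control tumors were nearly level and every cabo tumor lay far below them.

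Cd247, another chain of the receptor complex, had 7.31, 7.15 and 7.27 CPM against 2.15, 1.84 and 2.15 CPM, and Zap70, the kinase that carries the signal on, had 10.2, 8.54 and 9.96 CPM against 2.69, 2.13 and 1.37 CPM. Their log2 fold changes were -1.82 (SE 0.17, edgeR adjusted p = 0.00331) and -2.21 (SE 0.26, edgeR adjusted p = 0.00873). Cd3g, Cd4, Lck and Cd5 were the other called members. Foxp3, the factor of regulatory T cells, and Il2ra, the receptor chain they carry at high level, were picked after their values were seen. Foxp3 had 4.03, 3.85 and 4.24 CPM against 1.66, 4.80 and 2.78 CPM (log2 fold change -0.39, SE 0.36). Il2ra had 4.73, 4.72 and 3.59 CPM against 5.87, 8.84 and 3.95 CPM (log2 fold change 0.52, SE 0.30, edgeR adjusted p = 0.39).

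Genes of CD8 T cells and NK cells were mixed, with 1 of 16 called higher and none lower and a median log2 fold change of -0.19 that ran from -0.65 without cabo mouse 25 to 0.23 without cabo mouse 27. Ccl5, a chemokine made by cytotoxic lymphocytes, had 16.4, 11.5 and 13.3 CPM in the control and 24.8, 29.4 and 23.2 CPM in the cabo tumors (log2 fold change 0.91, SE 0.16, edgeR adjusted p = 0.0401). Cd8a, named after its values were seen, had 0.357, 0.434 and 0.0829 CPM against 2.87, 1.45 and 1.08 CPM (log2 fold change 2.62, SE 0.63, edgeR adjusted p = 0.0859). All 3 cabo tumors were thus above all 3 control tumors for Cd8a, while the opposite held for Cd3e and Trac. Over the CD8 and NK list, 11 genes had a negative and 5 a positive log2 fold change. In each direction 4 genes had no overlap and 2 were DEGs.

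Among B and plasma cell genes 1 of 14 was called, lower with cabo, and the median was -0.70, or -0.40 without cabo mouse 25. Ighm, the constant region of IgM, had 39.6, 38.7 and 33.8 CPM in the control and 11.03, 6.81 and 9.85 CPM in the cabo tumors (log2 fold change -2.02, SE 0.19, edgeR adjusted p = 0.00331). Immunoglobulin segments share sequence, and Ms4a1, which encodes the B cell protein CD20 and was picked after its values were seen, had at most 0.881 CPM in any tumor and overlapped between groups. Checkpoint genes moved in both directions, with 2 of 12 called lower and 1 higher. Lag3, an inhibitory receptor of activated T cells, had 10.2, 8.33 and 9.91 CPM against 2.61, 2.52 and 1.42 CPM (log2 fold change -2.12, SE 0.26, edgeR adjusted p = 0.0107). Btla, an inhibitory receptor of B and T cells, had 3.84, 3.46 and 3.74 CPM against 0.677, 0.627 and 1.37 CPM (log2 fold change -2.04, SE 0.34, edgeR adjusted p = 0.0316). Cd274, which encodes PD-L1, rose from 14.0, 16.6 and 14.7 CPM to 27.5, 34.6 and 24.99 CPM (log2 fold change 0.94, SE 0.15, edgeR adjusted p = 0.0265).

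**Figure D3:**
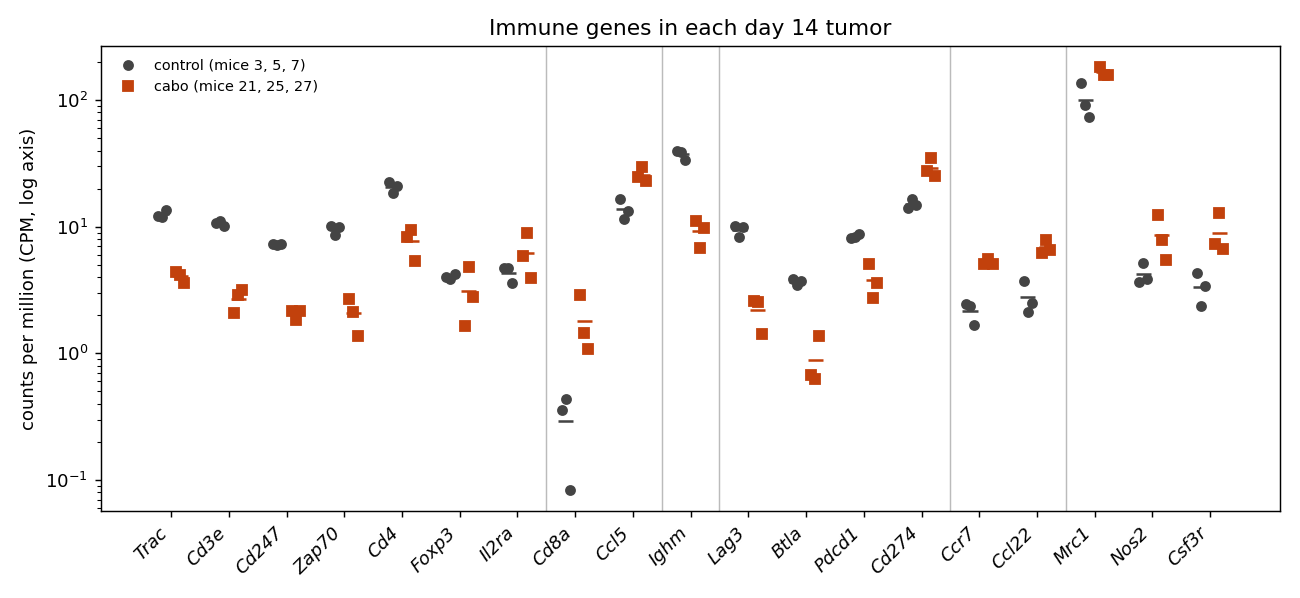
Levels (CPM, log axis) of 19 immune genes in each tumor, circles for the 3 control and squares for the 3 cabo tumors, with a short line at each group mean. From left to right the vertical lines separate T cell, cytotoxic, antibody, checkpoint, dendritic cell and chemokine, and myeloid genes, and Trac to Cd4 are lower with cabo while Cd8a, Ccl5, Cd274, Ccr7 and Ccl22 are higher.

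None of 22 macrophage genes was called, 19 had a positive log2 fold change, and 5 had no overlap upward, against 13.6% of all genes tested. The median was 0.56, running from 0.34 without cabo mouse 25 to 0.83 without control mouse 3. Mrc1, the mannose receptor of tissue macrophages, had 137, 92.1 and 74.0 CPM in the control and 182, 159 and 157 CPM in the cabo tumors (log2 fold change 0.72, SE 0.21, edgeR adjusted p = 0.133). Nos2, the inducible nitric oxide synthase, had 3.67, 5.15 and 3.90 CPM against 12.4, 7.92 and 5.47 CPM (log2 fold change 1.02, SE 0.30, edgeR adjusted p = 0.142). The lowest cabo tumor was above the highest control tumor in both genes, by a small margin for Nos2.

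The 11 dendritic cell genes had a median log2 fold change of -0.13, which ran from -0.31 without control mouse 7 to 0.46 without control mouse 3. Ccr7, the receptor for Ccl21, was called higher, with 2.48, 2.37 and 1.69 CPM against 5.04, 5.53 and 5.06 CPM (log2 fold change 1.26, SE 0.21, edgeR adjusted p = 0.033). Fscn1, an actin-bundling gene that many tumor cells also express, was called lower, from 290, 285 and 290 CPM to 220, 205 and 215 CPM (log2 fold change -0.43, SE 0.08, edgeR adjusted p = 0.036). Among 19 chemokine genes 17 had a positive log2 fold change, with a median of 0.50, and Ccl22, made by dendritic cells and macrophages, was called higher, with 3.73, 2.10 and 2.49 CPM against 6.25, 7.79 and 6.61 CPM (log2 fold change 1.31, SE 0.25, edgeR adjusted p = 0.0453). No neutrophil gene of 13 was called, 9 had a positive and 4 a negative log2 fold change, and 3 were DEGs, all lower. Csf3r, the G-CSF receptor, had a log2 fold change of 1.41 (SE 0.32, edgeR adjusted p = 0.0781), and Ltf, a granule gene of maturing neutrophils, one of -2.75 (SE 0.64, edgeR adjusted p = 0.0793). Of 6 mast cell genes none was called and 3 were DEGs, all lower, with a median log2 fold change of -1.53 that was -0.60 without control mouse 3 and 0.67 with counts divided by 4. Cpa3 and Tpsb2, 2 granule proteases, had log2 fold changes of -3.04 (SE 0.83, edgeR adjusted p = 0.12) and -1.78 (SE 0.50, edgeR adjusted p = 0.127) at levels under 3 CPM.

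Interferon and antigen presentation genes were highest in 1 cabo tumor. Cabo mouse 25 had the highest score of all 6 tumors for the type I interferon, interferon-gamma, MHC class I and MHC class II lists, where a score is the mean log2 CPM of the list. For the 17 interferon-gamma genes the scores were 3.49, 3.75 and 2.80 in the control and 3.76, 4.89 and 3.34 in the cabo tumors. Cd274 was the 1 gene called among these 4 lists. Their median log2 fold changes were 0.46 for type I interferon, 0.79 for interferon-gamma, 0.30 for MHC class I and 0.90 for MHC class II, and 23 of 24, 16 of 17, 12 of 13 and 8 of 9 genes were positive. Without cabo mouse 25 these medians were 0.26, 0.17, 0.0055 and 0.16. Without another tumor they rose to as much as 0.66 (control mouse 5), 1.05 (cabo mouse 27), 0.58 (cabo mouse 27) and 1.32 (control mouse 3). H2-Ab1, a chain of MHC class II, had 40.8, 15.5 and 18.8 CPM against 33.6, 105 and 30.03 CPM (log2 fold change 1.17, SE 0.54, edgeR adjusted p = 0.295), and Ciita, its regulator, 2.76, 1.75 and 0.967 CPM against 2.89, 6.28 and 3.54 CPM (edgeR, adjusted p = 0.196).

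Skeletal muscle RNA was far higher in the cabo tumors. All 23 tested muscle genes had a positive log2 fold change, 20 had no overlap upward, 19 were DEGs and 9 were called. Their median was 4.19, and it ran from 3.71 without control mouse 3 to 5.68 without control mouse 5. Their summed level was 149, 344 and 205 CPM in the control and 1635, 2395 and 2454 CPM in the cabo tumors. Myh4, the myosin of fast fibers, had 0.605, 6.99 and 5.08 CPM against 141, 236 and 476 CPM (log2 fold change 6.07, SE 0.85, edgeR adjusted p = 0.019). Ttn, the giant spring protein titin, had 1.44, 6.81 and 1.37 CPM against 55.6, 88.1 and 73.5 CPM (log2 fold change 4.49, SE 0.64, edgeR adjusted p = 0.0196). Both fiber genes were present in every tumor, with control mouse 5 the highest control and all cabo tumors far above it.

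Several of the largest rises among called genes of at least 1 CPM were in genes known from muscle. Xirp2 rose from 0.151, 2.31 and 0.898 CPM to 99.3, 87.5 and 85.2 CPM (log2 fold change 6.33, SE 0.70, edgeR adjusted p = 0.00718). Mybpc2, Lmod2, Csrp3 and Fbxo40 rose by log2 fold changes of 5.71, 5.44, 6.17 and 5.55. Csrp3 had 0, 11 and 0 counts in the control tumors, and its log2 fold change ran from 1.52 to 11.03 over the alternative settings. Abra, an actin-binding activator of muscle, had 0 counts in all control tumors and 2.72, 2.10 and 2.66 CPM in the cabo tumors, at least 61.3-fold higher when the controls are set to 3 counts per library. By the same floor Asb15 was at least 26.3-fold higher. Myoz1, Coq8a, Cnksr1, Asb16 and Neurl1a completed the called genes with the smallest p that were higher, with log2 fold changes of 3.40, 2.02, 3.97, 4.41 and 2.38.

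In the list of myogenic and regenerating muscle, 3 of 13 genes were called, all higher. Fbxo32 and Trim63, which encode the muscle ubiquitin ligases atrogin-1 and MuRF1 that are known for their rise in muscle wasting, had 5.77, 7.31 and 8.28 CPM against 27.4, 33.4 and 35.7 CPM and 0, 0.802 and 0.359 CPM against 9.44, 16.5 and 20.9 CPM. Their log2 fold changes were 2.18 (SE 0.17, edgeR adjusted p = 0.00314) and 5.32 (SE 0.88, edgeR adjusted p = 0.0315). Myf6, a factor of mature fibers, was the other (log2 fold change 4.75, SE 0.64, edgeR adjusted p = 0.0157). The satellite cell gene Pax7 had at most 12 counts in any tumor.

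Averaged over the list, the log2 CPM of muscle genes (the muscle score) was -0.995, 2.82 and 0.733 in the control and 5.17, 5.63 and 5.49 in the cabo tumors. With this score as a covariate no gene was called in either direction, while edgeR gave 1209 genes an unadjusted p under 0.05, and muscle RNA and cabo cannot be told apart as sources of a difference. With the covariate all 70 named genes that were called kept the direction of their log2 fold change. For the 33 that were higher, 8 had one at least as large and 25 a smaller one, and for the 37 that were lower, 22 had one at least as large and 15 a smaller one. Dll4 had a log2 fold change of -3.16 with the covariate, Flt4 -5.04 and Trac -1.56, while Myh4 had 2.74, Thbs4 0.79, Fn1 0.50, Cdk1 -0.31 and Aurka -0.24. The median of the muscle list was then -0.15, that of the cell cycle list -0.04 and that of the type I interferon list 0.07.

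**Figure D4:**
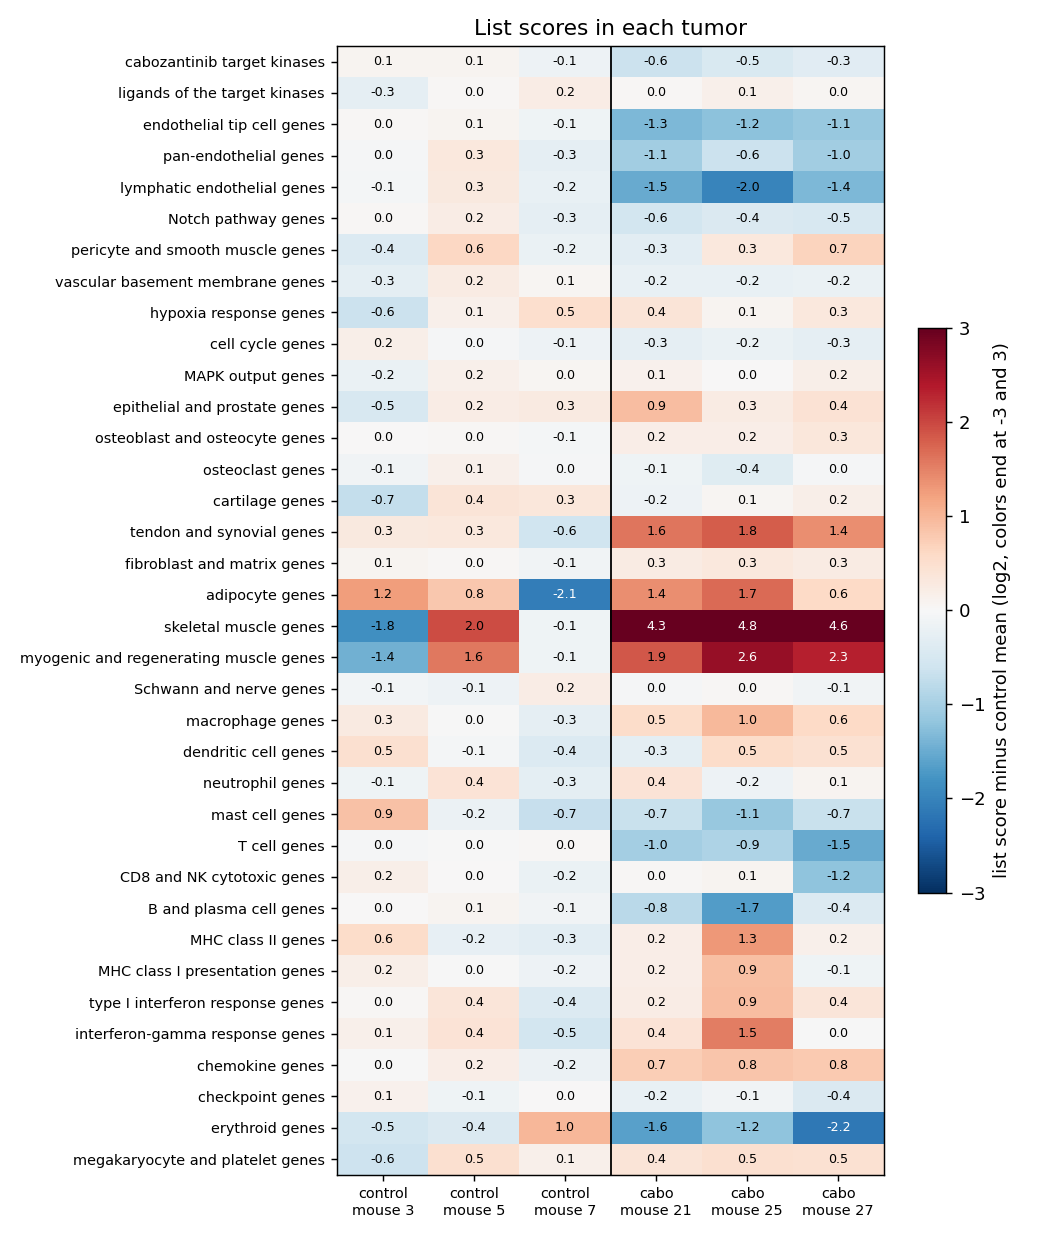
Score of each of 36 lists (rows, mean log2 CPM of the list) in each of the 6 tumors (columns), minus the mean of the 3 control tumors and colored from blue (lower) to red (higher), with colors ending at -3 and 3. The skeletal muscle row is highest in all 3 cabo tumors, and the tip cell, lymphatic and T cell rows are lower in all 3 cabo than in all 3 control tumors.

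Of 14 tendon and synovial genes 4 were called higher and none lower, 10 had a positive and 4 a negative log2 fold change. The median was 0.65, and it was 0.30 without control mouse 7, 1.12 without control mouse 3 and 2.16 with counts divided by 4. Prg4, which encodes lubricin of the joint and tendon surface, had 1.50, 2.34 and 1.17 CPM in the control and 28.9, 29.2 and 37.4 CPM in the cabo tumors (log2 fold change 4.25, SE 0.27, edgeR adjusted p = 0.00245). Fmod, a collagen-binding matrix protein of tendon, had 0.907, 1.93 and 0.815 CPM against 20.9, 29.1 and 20.5 CPM (log2 fold change 4.27, SE 0.36, edgeR adjusted p = 0.00314). Thbs4, with 6.32, 25.8 and 6.88 CPM against 82.3, 104 and 137 CPM, is made in tendon and in muscle (log2 fold change 3.05, SE 0.55, edgeR adjusted p = 0.0403). Tnmd, the tendon gene tenomodulin, had 0 counts in all control tumors and was at least 12.7-fold higher with cabo.

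In the fibroblast list 2 of 22 genes were called, both matrix genes and both higher. Col3a1 had 2766, 3435 and 3026 CPM in the control and 4717, 4909 and 4734 CPM in the cabo tumors (log2 fold change 0.64, SE 0.11, edgeR adjusted p = 0.0376), and Fn1, fibronectin, 1896, 2388 and 2503 CPM against 3793, 4415 and 4511 CPM (log2 fold change 0.91, SE 0.14, edgeR adjusted p = 0.0234). Both genes were already abundant, and the groups did not overlap. No adipocyte gene of 11 was called, and the median of that list, 0.36, ran from -0.11 without control mouse 7 to 1.43 without control mouse 3. Car3, an enzyme of fat and slow muscle, had 10.3, 8.82 and 0.511 CPM against 37.3, 54.8 and 41.8 CPM (edgeR, adjusted p = 0.137), and Cfd overlapped. Of 10 nerve genes Nefm, a neurofilament, was called lower, from 9.84, 9.62 and 9.27 CPM to 5.54, 4.22 and 4.72 CPM (log2 fold change -0.99, SE 0.16, edgeR adjusted p = 0.0265).

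Penk, which encodes the opioid precursor proenkephalin and belongs to no list, had one of the smallest p-values of the higher genes. It had 41.0, 40.3 and 44.1 CPM in the control and 115, 127 and 105 CPM in the cabo tumors (log2 fold change 1.47, SE 0.10, edgeR adjusted p = 0.00245). Its levels were tight within both groups.

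Few bone genes were called. Among 11 tested genes of osteoblasts and osteocytes none was called and the median log2 fold change was 0.18, running from 0.10 without control mouse 3 to 0.33 without control mouse 7. Col1a2, a chain of type I collagen, had 1541, 1502 and 1208 CPM in the control and 1812, 2108 and 1846 CPM in the cabo tumors (log2 fold change 0.44, SE 0.13, edgeR adjusted p = 0.131). The other 9 genes of the list had at most 32 counts in any tumor. Of 18 osteoclast genes 1 was called, lower with cabo, and the median was -0.23, or -0.12 without control mouse 5. Acp5, which encodes the osteoclast enzyme TRAP and is also found in macrophages, had 74.0, 93.6 and 86.3 CPM against 44.6, 37.2 and 54.2 CPM (log2 fold change -0.90, SE 0.15, edgeR adjusted p = 0.0327). Ctsk, the collagen-degrading protease of osteoclasts, named after its values were seen, had 105, 120 and 93.9 CPM against 85.0, 70.7 and 104 CPM and overlapped (log2 fold change -0.29, SE 0.15). None of 9 tested cartilage genes was called, and their median of -0.01 ran from -0.07 without control mouse 3 to 0.25 without cabo mouse 21. Hapln1 and Col11a1 had log2 fold changes of -2.06 (SE 0.47, edgeR adjusted p = 0.0787) and 0.83 (SE 0.24, edgeR adjusted p = 0.136).

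Erythroid genes had a median log2 fold change of -2.40, which was -1.32 without control mouse 7, with none of 7 called, 5 DEGs and 5 with no overlap, all lower. Hbb-bs, a beta globin, had 18.9, 26.4 and 104 CPM in the control and 5.70, 9.51 and 4.87 CPM in the cabo tumors (log2 fold change -2.90, SE 0.65, edgeR adjusted p = 0.0727), and Hba-a1, an alpha globin, 16.9, 24.4 and 66.4 CPM against 6.18, 10.4 and 5.12 CPM (log2 fold change -2.31, SE 0.52, edgeR adjusted p = 0.0748). Control mouse 7 was the highest for both, and each globin has near-identical copies among which reads can be split. Klf1 and Gata1, which mark red cell precursors, had at most 14 counts in any tumor. Pf4, a platelet chemokine also made by some macrophages, was the 1 called gene of 5 in the platelet list and was higher, with 21.6, 15.6 and 16.6 CPM against 35.5, 33.2 and 31.1 CPM (log2 fold change 0.89, SE 0.15, edgeR adjusted p = 0.0295).

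Of 26 cell cycle genes 23 had a negative log2 fold change, 14 had no overlap downward and 2 were called, with a median of -0.30, which was -0.18 without control mouse 3 and -0.04 with the muscle score as a covariate. Cdk1, which drives entry into mitosis, had 188, 165 and 157 CPM in the control and 120, 117 and 117 CPM in the cabo tumors (log2 fold change -0.53, SE 0.09, edgeR adjusted p = 0.0338). Aurka, a mitotic kinase, had 105, 90.8 and 92.3 CPM against 67.5, 68.6 and 70.2 CPM (log2 fold change -0.48, SE 0.09, edgeR adjusted p = 0.0376). Both genes fell by less than 1 on the log2 scale and without overlap. Mki67, which encodes the proliferation marker Ki-67 and was picked after its values were seen, had 225, 243 and 178 CPM against 218, 264 and 211 CPM and overlapped (log2 fold change 0.10, SE 0.14).

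None of 19 MAPK output genes was called, with a median of 0.04 that ran from 0.0058 without control mouse 3 to 0.15 without control mouse 5. This pathway lies downstream of both H-Ras and the kinases that cabo blocks. Dusp6, a phosphatase induced by ERK, had 200, 219 and 157 CPM in the control and 272, 242 and 294 CPM in the cabo tumors (log2 fold change 0.49, SE 0.14, edgeR adjusted p = 0.127), and Etv1, an ERK-induced factor, had a log2 fold change of 0.45 (SE 0.15, edgeR adjusted p = 0.17). Among 9 tested epithelial genes none was called, the median was 0.31, running from 0.18 without cabo mouse 21 to 0.48 without control mouse 7, and Krt19, a keratin, had 3.66, 7.51 and 8.54 CPM against 19.97, 11.3 and 16.8 CPM (log2 fold change 1.29, SE 0.33, edgeR adjusted p = 0.106).

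Among hypoxia genes 1 of 20 was called, with a median of 0.10 that ran from -0.18 without control mouse 3 to 0.39 without control mouse 7. Car9, a carbonic anhydrase known as a strict target of the hypoxia factor HIF-1, was the called gene, with 1.83, 1.64 and 2.51 CPM in the control and 5.83, 6.09 and 5.12 CPM in the cabo tumors (log2 fold change 1.51, SE 0.22, edgeR adjusted p = 0.0218). The groups did not overlap.

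The called genes were then read in day 14 tumors of other mice that carried the same cells and were given the IL-27 vector in place of the empty one, 3 with cabo and 3 with PVP. No tumor is shared between the comparisons. In those tumors edgeR gave no gene of 18570 an adjusted p under 0.05 and 900 an unadjusted p under 0.05, of which 589 were higher (3.17%) and 311 lower (1.67%). Of the 223 genes called higher above, 222 were tested there, 219 moved in the same direction (98.6%) and 66 (29.7%) did so with an unadjusted p under 0.05. Among the 129 called lower, 125 were tested, 111 moved in the same direction (88.8%) and 55 (44.0%) did so with an unadjusted p under 0.05. Across all 18015 genes tested in both, 53.5% were higher with cabo. All these genes were read in the same tumors, so their directions are not separate observations. The median log2 fold change of the called genes was 1.52 there for those higher and -1.27 for those lower. Without the IL-27+cabo tumor of mouse 20, which had the fewest counts of the 24 libraries and was left out after the data were seen, the shares with an unadjusted p under 0.05 rose to 46.8% of those higher and 54.3% of those lower.

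Among vessel genes, 19 of the 22 tip cell and 21 of the 26 pan-endothelial genes had the same sign in these mice. Dll4 had 9.22, 12.5 and 11.01 CPM in the tumors with IL-27 and 0.877, 1.23 and 0.838 CPM in those with IL-27+cabo (log2 fold change -3.47, SE 0.36, edgeR unadjusted p = 2.13e-05). Flt4 had 13.04, 12.2 and 11.6 CPM against 1.08, 1.59 and 1.89 CPM (log2 fold change -3.01, SE 0.35, edgeR unadjusted p = 4.92e-05). Esm1 had 4.85, 11.7 and 5.74 CPM against 0.274, 0.363 and 0.216 CPM (log2 fold change -4.70, SE 0.53, edgeR unadjusted p = 4.2e-05). The groups did not overlap for any of these 3 genes.

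Mest, an imprinted hydrolase gene that was among the called genes with the smallest p, had 34.5, 29.5 and 21.997 CPM in the control and 2.55, 4.14 and 3.57 CPM in the cabo tumors, and 15.3, 13.7 and 35.7 CPM with IL-27 against 2.34, 2.43 and 3.06 CPM with IL-27+cabo, without overlap. Of the genes tested in the empty vector tumors, 23 of the 23 muscle, 16 of the 18 T cell and 11 of the 14 tendon genes had the same sign here. Trac had 12.3, 2.06 and 2.88 CPM with IL-27 against 3.31, 2.69 and 2.41 CPM with IL-27+cabo, so that 2 of the 3 IL-27 tumors were already at the level of the cabo tumors (edgeR, unadjusted p = 0.177). Myh4 had 2.62, 9.40 and 301 CPM against 299, 1027 and 181 CPM, with the IL-27 tumor of mouse 8 in the range of the treated ones (edgeR, unadjusted p = 0.196). The interferon and MHC lists, which 1 cabo tumor of the empty vector mice led, had median log2 fold changes of 1.86 (type I interferon, 23 of 24 genes with the same sign), 1.69 (interferon-gamma, 16 of 17), 1.10 (MHC class I, 12 of 13) and 1.23 (MHC class II, 8 of 9) in the mice given IL-27. In other lists fewer genes did so, with 2 of 11 adipocyte genes (median -1.27 with IL-27), 5 of 14 B and plasma cell genes (0.34), 7 of 14 Notch pathway genes (-0.33) and 8 of 15 ligand genes (-0.17) moving the same way, and with a median of 0.66 for mast cell genes. For MAPK output genes it was 8 of 19 and for erythroid genes 4 of 7. Medians with IL-27 were 0.98 for CD8 and NK, 0.96 for dendritic cell, 0.46 for nerve and 0.79 for mural cell genes, against negative medians with the empty vector. For hypoxia and MAPK output genes they were -0.49 and -0.20, against positive ones. Prg4 had 0.702, 1.69 and 4.27 CPM against 9.31, 6.71 and 3.89 CPM (log2 fold change 1.58, SE 0.69, edgeR unadjusted p = 0.0546).

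Whether the effect of cabo itself differed between the vectors was tested as an interaction in all 12 day 14 tumors. There edgeR gave none of 19899 genes an adjusted p under 0.05 and 375 an unadjusted p under 0.05. Prg4, with a difference in log2 fold change of -2.67 (edgeR unadjusted p = 0.00528), Mmrn1, with 3.01 (0.0117), and Flt4, with 1.24 (0.0126), were among the latter, each with the smaller change in the mice given IL-27. For Dll4 the difference was -0.35 (edgeR unadjusted p = 0.336). These genes were named for their changes in the empty vector tumors, which also enter this test. A smaller change in the mice given IL-27 cannot be told apart from that choice.

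**Figure D5:**
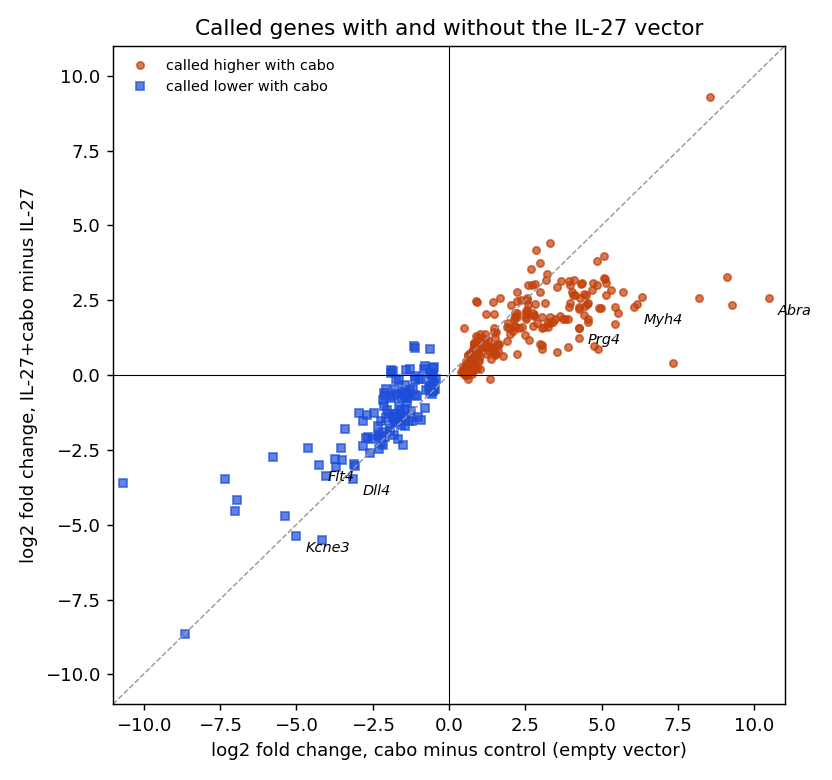
Log2 fold change with cabo in mice given the empty vector (x axis) against that in mice given the IL-27 vector (y axis), for the genes called in the former and tested in the latter, circles for 222 called higher and squares for 125 called lower. Along the dashed line both changes are equal, and 219 of the circles lie above 0 and 111 of the squares below 0 on the y axis.

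Several further called genes with the smallest p were lower and belong to no list. Ephb1, an Eph receptor, had 3.30, 3.38 and 2.74 CPM in the control and 0.288, 0.265 and 0.175 CPM in the cabo tumors (log2 fold change -3.68, SE 0.30, edgeR adjusted p = 0.00314). Ednrb, the endothelin B receptor, which endothelium and melanocytes carry, had 23.2, 24.1 and 27.4 CPM against 4.89, 5.14 and 7.42 CPM (log2 fold change -2.10, SE 0.19, edgeR adjusted p = 0.00314). Clca2 had 3.81, 3.04 and 2.09 CPM against 0.158, 0.167 and 0.175 CPM (log2 fold change -4.14, SE 0.34, edgeR adjusted p = 0.00314), and Gimap6, a GTPase gene of lymphocytes and endothelium, 21.9, 20.2 and 19.6 CPM against 5.87, 6.84 and 7.47 CPM (log2 fold change -1.61, SE 0.14, edgeR adjusted p = 0.00314). None of these 4 genes had a tumor of one group within the range of the other.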

How the data were processed

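RNA was measured in 6 intratibial tumors, with 6 day 14 tumors of mice given the IL-27 vector as a second comparison. Per the authors, stranded poly(A) libraries were read in pairs and mapped with HISAT2, and StringTie was used to calculate expression levels. What the authors deposited are raw counts, whole numbers for each Ensembl gene. The program that made the counts and the mouse build are not given in the sources used here, and the submitters' processing notes name only GRCh38. Names and coordinates are those of GENCODE M21 (GRCm38), matched by identifier for 55141 of 55401 genes.

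Counts were tested in R 4.3.3 with edgeR 4.0.16 (filterByExpr with a minimum count of 10, TMM, quasi-likelihood F test, two-sided, Benjamini-Hochberg adjustment over all genes tested). Each fit held the 6 tumors compared, the interaction all 12. The fit was tested on simulated data. Log2 CPM has a prior count of 2. Alternatives were DESeq2 1.42.0, RLE normalization, no filter, all 12 day 14 tumors in one fit, the muscle score as covariate, a fold change limit of 1.5, removal of trends in GC content and length, counts divided by 4, and leaving out each tumor. Leaving out mouse 20 was added after the data were seen. The tumors compared are set by their labels, but this comparison and the gene lists were chosen with earlier results of these data known.

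The genes named are, per direction, the 12 called genes with the smallest p and the 8 with the largest change at 1 CPM or more, without overlap and without provisional names, up to 4 called genes of each list and direction or else the 2 with the smallest p, all target kinases and ligands, Ibsp and Hras. Some genes that this rule names are not reported here. Others are said to be picked after their values were seen, as were all genes of the other observations.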

Additional observations from a re-analysis of the deposited data

How the results depend on the processing

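DESeq2 called 864 genes higher and 636 lower, and 70 and 83 of the list genes. Without a filter on low counts these numbers were 50, 51, 4 and 18, with 352 downregulated DEGs. With all 12 day 14 tumors in one fit they were 3, 23, 1 and 9, and with the muscle score as a covariate 0, 0, 0 and 0. Counts divided by 4 left 136 downregulated DEGs, fewer genes being tested. A fold change limit of 1.5 gave 853 upregulated and 595 downregulated DEGs. RLE normalization and the removal of trends in GC content and length moved none of these counts by over 1.5 times, and no normalization moved the median of all genes by over 0.1. The share of called genes that were higher was 63.4%, against 11.5% with all 12 tumors in one fit, 49.5% without a filter, 71.3% without control mouse 5, 50.0% without control mouse 7, and 52.7%, 42.4% and 48.8% without cabo mouse 21, 25 and 27.

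Leaving out 1 tumor at a time gave 296 to 467 upregulated and 209 to 320 downregulated DEGs, 39 to 419 genes called higher and 41 to 169 lower, and 4 to 39 list genes called higher and 19 to 40 lower. Without control mouse 5 the list genes called higher were 39, without control mouse 7 they were 7 and those lower 24, and without cabo mouse 21, 25 or 27 they were 6, 4 and 4 higher and 19, 22 and 20 lower. Without mouse 20, 220 of the called genes were higher and 122 lower in the mice given IL-27, and no gene passed the interaction test. Of the 70 named genes that were called, 13 were called in all alternatives but the muscle covariate, namely Dll4, Flt4, Esm1, Kcne3, Pcdh12, Emcn, Mmrn1, Ccl21b, Mest, Ephb1, Ednrb, Gimap6 and Prg4. With the muscle covariate the medians of the lists of target kinases, ligands, hypoxia, MAPK, epithelial, skeletal muscle, myogenic, dendritic cell, neutrophil, mast cell and platelet genes changed sign. No named gene reversed its direction past the threshold in any alternative. The cause of these differences was not tested.

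No paired analysis was possible because the control and cabo groups share no mouse numbers.

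With 3 tumors a group, the precision is set by the spread between mice. Between 30.4% and 32.7% of the low values of a tumor were multiples of 4, so no counting interval is given.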

Other observations

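The genes that follow were picked because they were lower, and are known from follicular helper T cells, which help B cells, so they say nothing of that cell type as a group. Cxcr5, the receptor that draws cells to B cell follicles, had 3.35, 3.64 and 3.98 CPM in the control and 0.734, 0.515 and 0.658 CPM in the cabo tumors (log2 fold change -2.52, standard error, SE, 0.25, edgeR adjusted p = 0.0040). Il21, the cytokine of these cells, had 2.45, 2.63 and 2.71 CPM against 0.345, 0.111 and 0.190 CPM (log2 fold change -3.58, SE 0.42, edgeR adjusted p = 0.00875). Izumo1r, the folate receptor FR4, had 4.92, 5.60 and 4.88 CPM against 0.619, 0.501 and 0.248 CPM (log2 fold change -3.49, SE 0.34, edgeR adjusted p = 0.0040). Control tumors were nearly level in all 3 genes. Tox, Tox2, Cd40lg, Cd200 and Pou2af1 were called lower as well, with log2 fold changes of -2.33, -2.47, -2.28, -1.57 and -2.95. Bcl6, the factor that defines these cells but is expressed in many others, had 25.9, 33.3 and 32.5 CPM against 36.6, 31.5 and 34.1 CPM. Relative to the mean log2 CPM of the T cell list, the difference between groups was -2.39 for Il21, -2.34 for Izumo1r, -1.33 for Cxcr5 and -0.03 for Pdcd1, without a test.

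The myeloid genes that follow lie outside the lists, were picked because they were higher, and say nothing of myeloid cells as a group. All were called higher, while none of the 22 macrophage and none of the 13 neutrophil genes of the lists was called. Of the neutrophil genes 3 were DEGs, all lower, and 19 of the macrophage genes had a positive log2 fold change. Itgam, which encodes CD11b, had 74.5, 63.4 and 57.7 CPM in the control and 149, 126 and 147 CPM in the cabo tumors (log2 fold change 1.11, SE 0.12, edgeR adjusted p = 0.00586). Il1b, the cytokine interleukin-1 beta, had 7.84, 5.64 and 3.61 CPM against 13.5, 17.1 and 17.6 CPM (log2 fold change 1.50, SE 0.27, edgeR adjusted p = 0.0416). F13a1, a gene of monocytes and macrophages, had 43.8, 24.3 and 21.7 CPM against 80.6, 85.7 and 73.7 CPM (log2 fold change 1.42, SE 0.25, edgeR adjusted p = 0.0376), and Trem1, Clec4d, Csf2rb and Itgb2 had log2 fold changes of 1.38, 1.54, 0.85 and 0.55.

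Of the genes of venules, 2 picked in the same way rose. Ackr1, a chemokine-binding receptor that marks venules, had 0.179, 0.158 and 0.193 CPM in the control and 1.48, 2.13 and 1.30 CPM in the cabo tumors (log2 fold change 3.20, SE 0.35, edgeR adjusted p = 0.00718), and 3.38 was its log2 fold change in the mice given IL-27. Selp, P-selectin of venules and platelets, had 3.77, 6.89 and 7.18 CPM against 16.5, 14.1 and 14.5 CPM (log2 fold change 1.34, SE 0.24, edgeR adjusted p = 0.0417). Its log2 fold change in the mice given IL-27 was -0.13.

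Xist, the RNA of the inactive X chromosome, was detected in tumors of male hosts, with 7.16, 8.64 and 6.51 CPM in the control and 2.81, 1.16 and 2.08 CPM in the cabo tumors (log2 fold change -1.88, SE 0.32, edgeR adjusted p = 0.0335).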
